A study of Mus musculus with 11 samples.

Results

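The fibroblast growth factor (FGF) system of the liver was followed through 10 genes: the ligands *Fgf1* and *Fgf21*, the receptors *Fgfr1*, *Fgfr2*, *Fgfr3* and *Fgfr4*, the co-receptor beta-Klotho (*Klb*), and the feedback genes *Dusp6*, *Spry4* and *Spred1*. They were taken by gene symbol from a table of 46603 genes, and each symbol matched 1 gene. All 10 passed the filter on low counts, and they are 10 of the 13880 genes tested. Whole-liver mRNA had been sequenced from 11 male *ob/ob* mice of the strain B6.V-*Lep ob*/JRj, which lack leptin and develop steatohepatitis on the AMLN diet, which is rich in fat, fructose and cholesterol. All mice started the diet at 5–6 weeks of age, ate it for 15 weeks and stayed on it during treatment. For 8 weeks, 4 mice received INT-767 at 10 mg/kg by gavage once daily and 7 received vehicle (carboxymethyl cellulose). INT-767 is a bile acid analog that activates both the nuclear receptor FXR and the membrane receptor TGR5, and all 11 mice share the leptin deficiency and the diet.

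Most FGFs are secreted ligands of tyrosine kinase receptors and bind them together with heparan sulfate or, for the endocrine members FGF15/19 and FGF21, together with beta-Klotho. In the liver FGFR4 with beta-Klotho receives FGF15, which comes from the ileum and represses bile acid synthesis, and hepatocytes themselves secrete FGF21, a hormone of fasting and metabolic stress. The receptors act through the adaptor FRS2 on the RAS to ERK cascade, and ERK signaling induces its own inhibitors: DUSP6 removes the activating phosphates of ERK, and Sprouty and SPRED proteins restrain RAS and RAF.

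Total counts were between 7966963 and 15295230 in the vehicle-treated mice (median 10878327, n = 7) and between 7381211 and 16022459 in the INT-767–treated mice (median 12034846.5, n = 4). Levels are given as CPM, counts of a gene per 1e+06 counts of the mouse's library after division by its TMM factor, which ranged from 0.843 to 1.14. In these libraries 3 counts, the limit that a count of 0 allows by counting error alone, corresponded to between 0.187 and 0.406 CPM before TMM scaling. The liver identity of the tissue was evident from 7 hepatocyte markers, of which *Alb* was the most abundant at 42969 ± 4295 CPM with vehicle (SD, n = 7) and 63823 ± 19471 CPM with INT-767 (SD, n = 4).

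The promoter of *Fgf21* is shown because regulators of this gene were measured in the same livers and are described with it below. These are the 250 bases before the *Fgf21* start site, chr7:45615491-45615740 on the minus strand of GRCm38.p6 (RefSeq). Capitals mark TTGCATCA, the core that ATF4 and C/EBP factors bind as a pair, at positions -139 to -132 from the start, and CACGTG, an E-box, at positions -50 to -45.
Fgf21: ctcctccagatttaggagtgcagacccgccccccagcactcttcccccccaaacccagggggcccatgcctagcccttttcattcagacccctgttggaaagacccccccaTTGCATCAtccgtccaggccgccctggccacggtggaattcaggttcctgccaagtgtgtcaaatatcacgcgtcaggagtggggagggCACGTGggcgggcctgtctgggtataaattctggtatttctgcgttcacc
Windows were searched for 7 of the 10 genes (*Fgfr2*, *Fgfr3*, *Fgfr4*, *Klb*, *Fgf21*, *Dusp6* and *Spred1*). Those of *Fgfr1*, *Fgf1* and *Spry4* were not searched, so that nothing is said of their motifs. Among 32851 windows of the genome, each the 250 bases before a start, 0.791% held TTGCATCA on either strand and 6.02% held CACGTG. TGACGTCA (cyclic AMP element), CCGGAAGT (ETS core), the inverted repeat IR-1 that FXR binds and the direct repeat DR-1 of other nuclear receptors were searched as well, and were held by 1.55%, 2.88%, 0.00609% and 0.0335% of windows. None of the 6 motifs occurred in the windows of the other 6 genes, which says only that these letters are not there.

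To ask which of the 10 genes differed between the groups, INT-767–treated livers were compared with vehicle-treated livers by edgeR's quasi-likelihood test, with Benjamini-Hochberg adjustment over all tested genes and a threshold of 0.05. *Fgfr1* was lower with INT-767 and the other 9 genes did not pass the threshold. That is 1 of 10 genes called, 0 higher and 1 lower, where 9.72% of all 13880 tested genes were called, 5.04% higher and 4.68% lower. A share of 1 in 10 is close to this background. An unadjusted edgeR *p* under 0.05 was reached by 1 of the 10, where 32.9% of all tested genes reached it. DESeq2 and both forms of limma-voom (plain and with sample weights) also called 1 of the 10, *Fgfr1* each time. Of all 13880 tested genes DESeq2 called 10.4% higher and 9.86% lower, plain limma-voom called 577 and 547, and the weighted form 1626 and 1182. The fitted log2 fold changes were negative for 5 genes and positive for 5, with a median of -0.07, and the median over all tested genes was -0.01. In 0 of the 10 genes were the groups fully separated, which held for 7.51% of tested genes, and for 3.64% with the INT-767 group below.

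**Figure D1:**
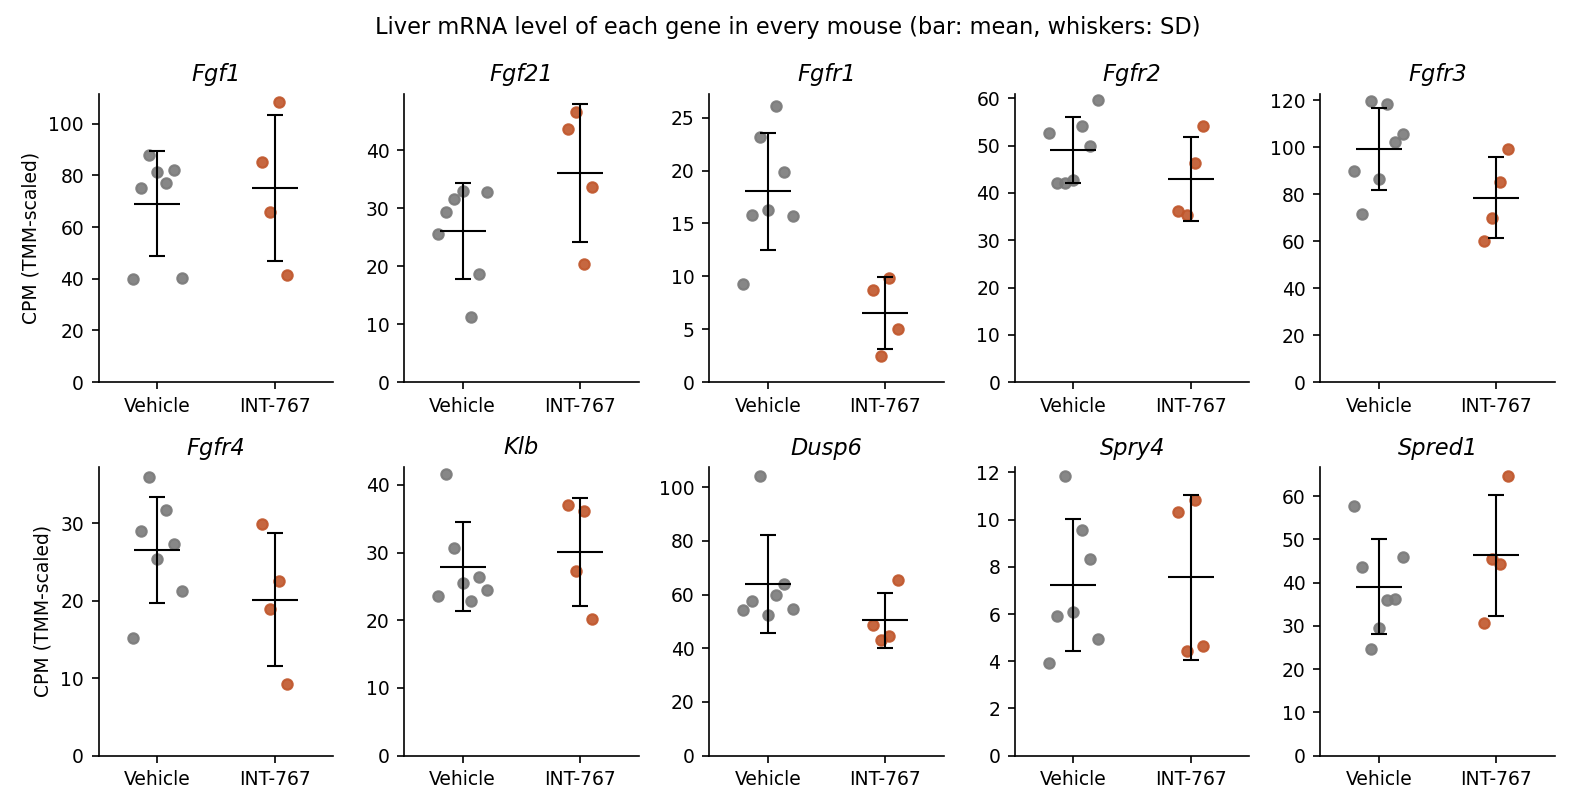
Each point is the level of 1 gene in 1 mouse, in TMM-scaled CPM on a linear axis from 0, with vehicle in gray (n = 7) and INT-767 in orange (n = 4). Horizontal bars are means and whiskers are SD. *Fgfr1* is the one panel in which 3 of 4 INT-767 mice lie below every vehicle mouse and the fit passed its threshold.

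Of the ligands, *Fgf1* (chr18:38838673-38929472 of GRCm38, minus strand, 5 exons in its longest transcript in GENCODE M21, the source of all gene positions given) encodes an FGF that binds all FGF receptors. Its level was between 39.8 and 87.7 CPM in the vehicle-treated mice, with a median of 77.2, and was 85.1, 65.8, 108 and 41.5 CPM in INT-767 mice 1 to 4. The groups overlapped over almost their whole range, with vehicle mice 1 and 7 (39.8 and 40.2 CPM) and INT-767 mouse 4 low. The log2 fold change was 0.12 ± 0.29 (SE; 95% interval -0.50 to 0.74; edgeR adjusted *p* = 0.778), and a two-sided Mann-Whitney test by full enumeration gave an exact *p* of 0.648.

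*Fgf21* (chr7:45613886-45615490, minus strand, 3 exons) was between 11.3 and 33.0 CPM with vehicle, with a median of 29.4, and 43.7, 46.7, 20.4 and 33.7 CPM in INT-767 mice 1 to 4. INT-767 mice 1, 2 and 4 were above every vehicle mouse, mouse 4 by less than 1 CPM, and mouse 3 lay among the vehicle mice. The mean was 26.0 ± 8.25 CPM with vehicle (SD, n = 7) and 36.1 ± 11.9 CPM with INT-767 (SD, n = 4). The log2 fold change of 0.47 ± 0.29 (SE; 95% interval -0.16 to 1.10) did not pass the threshold by edgeR (adjusted *p* = 0.26), nor did the exact rank test (*p* = 0.109). When INT-767 mouse 3 was left out the exact *p* was 0.0167, the smallest that 3 against 7 mice can give, while the edgeR adjusted *p* was 0.123. The exact *p* was 0.267 without any one of the other 3 INT-767 mice and 0.412 with libraries scaled by size only.

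The other FGF genes were scarce. *Fgf15*, the mouse counterpart of FGF19, had 0 counts in 10 of the 11 livers and 2 counts in INT-767 mouse 1, and was too low to test. Of 22 FGF genes, 16 were too low to test, and *Fgf3*, *Fgf4*, *Fgf5*, *Fgf6* and *Fgf10* had no count in any mouse. Besides *Fgf1* and *Fgf21*, 4 FGF genes were tested. *Fgf2* was at 4.95 ± 1.41 CPM with vehicle (SD, n = 7), and *Fgf9*, *Fgf11* and *Fgf12* were between 1.07 and 1.41 CPM on average. The 6 tested FGF genes gave 0 calls with edgeR and limma-voom and 1 lower with DESeq2, which called 9.86% of all tested genes lower. Of the 6, 1 had an unadjusted edgeR *p* under 0.05, beside 32.9% of all tested genes. The gene with this *p* was *Fgf9*, at 1.13 ± 0.471 CPM with vehicle and 0.481 ± 0.201 CPM with INT-767 (log2 fold change -1.27 ± 0.43; edgeR adjusted *p* = 0.0732).

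*Fgfr1* encodes the receptor that FGF21 uses with beta-Klotho in adipose tissue and is the FGF receptor of many mesenchymal cells. The gene lies at chr8:25513654-25575718 on the plus strand, with 18 exons in its longest transcript, and 1.66% of its exon bases lie under the opposite-strand gene *Gm16159*, which had 8 counts in all libraries against 1811 for *Fgfr1*. Vehicle mice 1 to 7 were at 9.24, 15.8, 23.1, 16.3, 26.1, 19.8 and 15.7 CPM, and INT-767 mice 1 to 4 at 8.76, 2.48, 9.84 and 5.01 CPM. INT-767 mouse 3 lay just above the lowest vehicle mouse, and the other 3 lay below all vehicle mice. The lowest value, in INT-767 mouse 2, rests on 18 counts, the fewest of any of the 10 genes in any mouse (18 to 1813 counts).

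The mean of *Fgfr1* was 18.0 ± 5.55 CPM with vehicle (SD, n = 7) and 6.52 ± 3.39 CPM with INT-767 (SD, n = 4), a fitted fold of 2.76 in favor of vehicle (log2 fold change -1.46 ± 0.36 SE; 95% interval -2.23 to -0.69). The difference passed the threshold by edgeR (adjusted *p* = 0.0267), as it did by DESeq2 (adjusted *p* = 0.000855), and the exact Mann-Whitney test gave *p* = 0.0121, where the smallest possible value was 0.00606. The edgeR call was lost when vehicle mouse 5 (adjusted *p* = 0.0526), vehicle mouse 6 (0.0548), INT-767 mouse 2 (0.0868) or INT-767 mouse 4 (0.0678) was left out, with the log2 fold change between -1.69 and -1.22 over all 11 such fits. By its *p*, *Fgfr1* was 296th among the 649 genes called lower. In whole liver, fewer cells of a type and less RNA per cell cannot be told apart.

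*Fgfr2*, *Fgfr3* and *Fgfr4* had lower means with INT-767 than with vehicle, and none passed the threshold. *Fgfr2* (chr7:130162451-133123350, minus strand) encodes a receptor whose splice forms divide between epithelium and mesenchyme. It was between 42.1 and 59.7 CPM with vehicle (median 50.0) and at 36.2, 35.3, 46.2 and 54.1 CPM with INT-767, so that INT-767 mice 1 and 2 were below all vehicle mice and the other 2 among them. Its log2 fold change was -0.19 ± 0.16 (95% interval -0.54 to 0.16; edgeR adjusted *p* = 0.404; exact Mann-Whitney *p* = 0.315), and it turned to 0.059 with an offset for GC content and transcript length. The annotated gene includes a transcript that runs into *Ctbp2*, with which it shares 3.04% of its exon bases.

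*Fgfr3* (chr5:33721674-33737068, plus strand, 18 exons), a receptor that FGF1 and FGF9 activate, had the most counts of the 4 receptor genes. Vehicle mice ranged from 71.7 to 120 CPM with a median of 102, and INT-767 mice 1 to 4 were at 60.0, 70.1, 85.2 and 99.2 CPM, the first 2 below every vehicle mouse. The log2 fold change was -0.34 ± 0.18 (95% interval -0.73 to 0.05; edgeR adjusted *p* = 0.203; exact Mann-Whitney *p* = 0.0727). The exact *p* of *Fgfr3* was 0.0242 with libraries scaled by size only, and with 1 mouse left out it lay between 0.0333 (INT-767 mouse 4 out) and 0.183 (INT-767 mouse 1 or 2 out). With an offset for GC content and transcript length its log2 fold change was -0.039. Of its exon bases, 13.9% lie under the opposite-strand gene *G630022F23Rik*, which had 132 counts against 11642 for *Fgfr3*, and whether reads were assigned by strand is not given in the sources used here.

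*Fgfr4* (chr13:55152640-55168759, plus strand, 18 exons), the receptor for FGF15 on hepatocytes, ranged from 15.2 to 35.9 CPM with vehicle (median 27.4) and was at 29.9, 18.9, 22.5 and 9.28 CPM with INT-767. Only INT-767 mouse 4 was below all vehicle mice. The log2 fold change was -0.40 ± 0.29 (95% interval -1.03 to 0.23; edgeR adjusted *p* = 0.336; exact Mann-Whitney *p* = 0.315). It was -0.66 without INT-767 mouse 1 (edgeR adjusted *p* = 0.125) and -0.16 when mouse 4 was left out instead. With all mice and the offset for GC content and transcript length it was -0.16 as well.

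*Klb* (chr5:65348314-65384007, plus strand, 5 exons), the co-receptor without which FGF15 and FGF21 do not signal, overlapped between the groups. Vehicle mice ranged from 22.8 to 41.6 CPM (median 25.5), with mouse 2 highest, and INT-767 mice 1 to 4 were at 37.0, 27.3, 36.1 and 20.1 CPM, with mouse 4 below all vehicle mice. The log2 fold change was 0.11 ± 0.21 (95% interval -0.34 to 0.56; edgeR adjusted *p* = 0.72; exact Mann-Whitney *p* = 0.648), and the interval leaves room for a change of up to about 0.56 on the log2 scale. Its sign turned with libraries scaled by size only (-0.07), a scaling that also moved the median of all genes from -0.01 to -0.22. The related co-receptor alpha-Klotho (*Kl*) had 5 counts in all 11 libraries and was too low to test, as were *Lctl* and *Fgfbp1*.

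**Figure D2:**
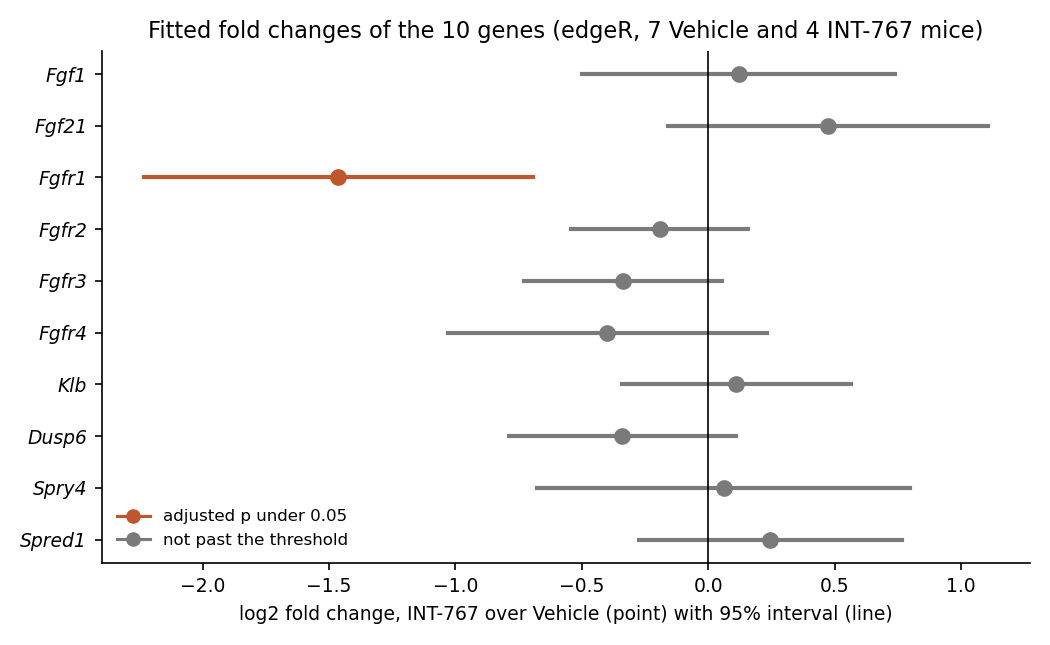
Points are log2 fold changes of INT-767 over vehicle from edgeR and lines their 95% intervals, in orange where the adjusted *p* was under 0.05. Of the 10 intervals, the one of *Fgfr1* (-2.23 to -0.69) excludes 0 and the others include it.

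Levels were compared between genes per kilobase of exon (CPM per kb, over the union of each gene's exons). In the vehicle-treated mice *Fgf21* was highest at 27.4 ± 8.67 CPM per kb, followed by *Dusp6* (20.4 ± 5.83), *Fgfr3* (13.9 ± 2.46), *Fgf1* (12.6 ± 3.71), *Fgfr4* (7.49 ± 1.92), *Klb* (6.13 ± 1.44), *Spred1* (5.76 ± 1.62), *Fgfr2* (4.75 ± 0.674), *Fgfr1* (1.83 ± 0.562) and *Spry4* (1.52 ± 0.588; SD, n = 7 for each). *Fgf21* and *Dusp6* were not apart by more than their spread, nor were *Fgfr3* and *Fgf1*, the run from *Fgfr4* to *Fgfr2* in neighboring pairs, and *Fgfr1* and *Spry4*. In the INT-767–treated mice *Fgf21* stood apart at 38 ± 12.5 CPM per kb, above *Dusp6* at 16.1 ± 3.26, and *Fgfr1* was last at 0.661 ± 0.344, below *Spry4* at 1.59 ± 0.737 (SD, n = 4 for each). Set over the length of the longest transcript instead, *Fgfr2* moved from rank 8 to rank 5 in the vehicle group and *Fgf21* stayed first in both groups.

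On this per-length scale *Fgfr3* made up about as much of the receptor mRNA as the other receptors together. With vehicle, *Fgfr3* made up 49.6 ± 4.02% of the sum of the 4 receptors, *Fgfr4* 26.7 ± 5.28%, *Fgfr2* 17.3 ± 3.28% and *Fgfr1* 6.42 ± 1.23% (SD, n = 7). With INT-767 the shares were 51.0 ± 9.35%, 26.7 ± 11.5%, 19.3 ± 3.02% and 3.00 ± 1.43% (SD, n = 4). The *Fgfr1* share was between 4.09% and 7.91% in the vehicle mice and was 4.18%, 1.34%, 4.2% and 2.29% in INT-767 mice 1 to 4, so that vehicle mouse 1 lay below INT-767 mice 1 and 3. The *Fgfr4* share spread from 11.8% in INT-767 mouse 4 to 39.8% in INT-767 mouse 1, wider than in the vehicle group (18.7% to 34.3%). Over the longest transcript *Fgfr3* held 50.6 ± 3.16% with vehicle, but *Fgfr2* (24.4 ± 3.98%) came before *Fgfr4* (17.3 ± 3.86%; SD, n = 7), in 6 of 7 vehicle mice and 3 of 4 INT-767 mice, so that the order of these receptors depends on the length used. Shares were not tested, since the share of *Fgfr1* holds the same counts as its fold change.

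**Figure D3:**
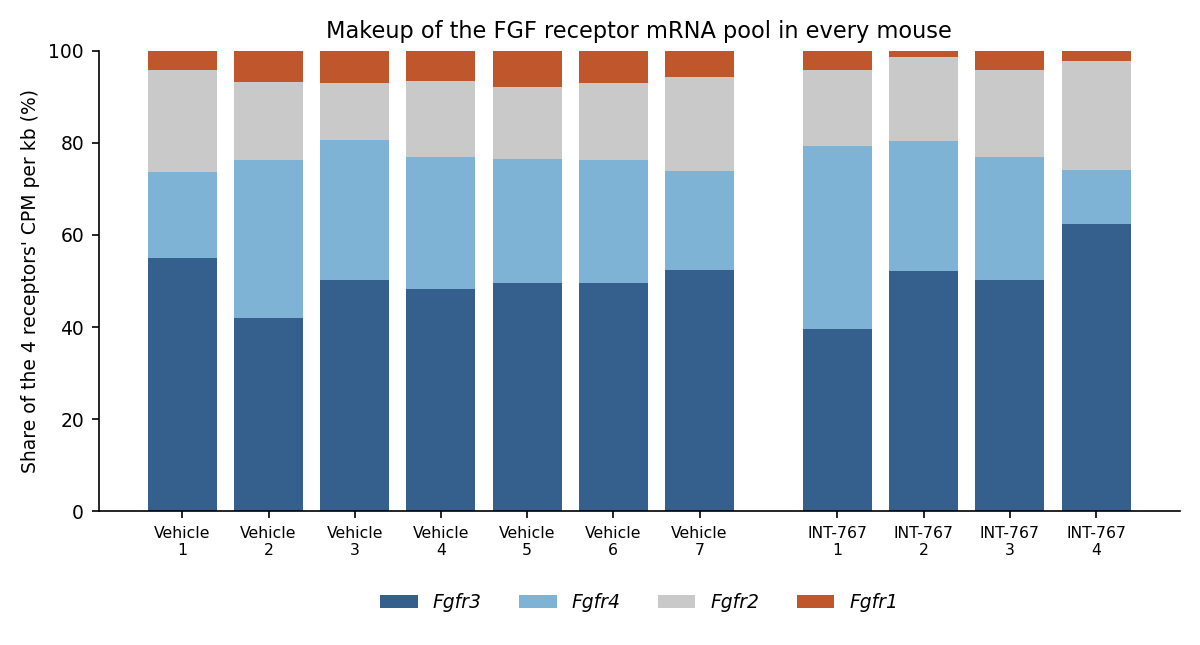
Each bar is 1 mouse and shows the percent of the summed CPM per kb of the 4 FGF receptors that each receptor held. *Fgfr3* is the largest part in every mouse except INT-767 mouse 1, where *Fgfr4* (39.8%) and *Fgfr3* (39.5%) are level (42.8% for *Fgfr3* and 27.2% for *Fgfr4* over the longest transcript), and the *Fgfr1* part is 4.2% or less in all 4 INT-767 mice.

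Of the feedback genes, *Dusp6* (chr10:99263231-99267489, plus strand, 3 exons), the cytoplasmic ERK phosphatase, ranged from 52.3 to 104 CPM with vehicle (median 57.7) and was at 48.6, 43.2, 44.6 and 65.3 CPM with INT-767. INT-767 mice 1 to 3 were below all vehicle mice, and mouse 4 was above all vehicle mice but mouse 3. Its log2 fold change was -0.34 ± 0.21 (95% interval -0.79 to 0.11; edgeR adjusted *p* = 0.255), with an exact Mann-Whitney *p* of 0.164. It was 0.0167 when INT-767 mouse 4 was left out, 0.383 when any one of the other 3 was, and 0.0424 with libraries scaled by size only.

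*Spry4* (chr18:38586247-38601415, minus strand, 2 exons), a Sprouty protein, was the gene of this group with the fewest counts (31 to 163). Vehicle mice ranged from 3.92 to 11.8 CPM (median 6.10), and the INT-767 mice formed a high pair, mice 1 and 3 at 10.3 and 10.8 CPM, and a low pair, mice 2 and 4 at 4.42 and 4.64 CPM. The log2 fold change was 0.06 ± 0.34 (95% interval -0.68 to 0.80; edgeR adjusted *p* = 0.908; exact Mann-Whitney *p* = 1). *Spred1* (chr2:117121374-117182279, plus strand, 7 exons), which brings neurofibromin to RAS, ranged from 24.6 to 57.6 CPM with vehicle (median 36.2) and was at 30.8, 45.4, 44.4 and 64.7 CPM with INT-767. Its log2 fold change was 0.25 ± 0.24 (95% interval -0.27 to 0.77; edgeR adjusted *p* = 0.472; exact Mann-Whitney *p* = 0.412). Leaving out INT-767 mouse 1 gave 0.40, and leaving out mouse 4 gave 0.033.

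Within the groups, several of the 10 genes varied together. Each mouse's log2 CPM was taken as its deviation from the mean of its group, and these deviations were correlated over the 11 mice as a description. *Fgfr1* and *Spry4* had a Pearson *r* of 0.90 (Spearman 0.93, and Pearson 0.92 without the 2 mice farthest from the median of *Fgfr1*). *Fgfr4* and *Fgf1* had *r* = 0.86 (Spearman 0.71, and 0.66 without the 2 farthest mice), and *Fgfr4* and *Klb* had *r* = 0.71 (Spearman 0.65, and 0.48). For *Spry4* with *Fgf1* and *Fgfr4*, *r* was 0.82 and 0.81 (0.73 and 0.80 without the 2 farthest mice). *Spred1* varied in the opposite direction to *Fgfr4*, *Fgf1* and *Spry4*, with *r* of -0.86, -0.78 and -0.77 (-0.72, -0.54 and -0.76 without the 2 farthest mice). The genes of a pair share library, depth and tissue piece in each mouse. Vehicle mice 1 and 7 had the lowest *Fgf1*, *Fgfr4* and *Spry4* of their group and its highest *Spred1*, and INT-767 mouse 4 had the lowest *Fgf1* and *Fgfr4* of its group and its highest *Spred1*.

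The genes with the most similar pattern over the 11 mice were named for each of the 10 by their *r*. For *Fgfr1* they were *Ntn1* (netrin-1), *Itgax* (the integrin CD11c) and *Slc41a1*, each with *r* = 0.96, and for *Spry4* they were *Bcl2l11*, *Spsb1* and *Foxj3* (*r* = 0.97 for each). For *Fgf1* they were *Cpt1a*, the gatekeeper of mitochondrial fatty acid oxidation, *Rxra*, the partner of FXR and PPARA, and *Dnmbp* (*r* = 0.99, 0.98 and 0.98), and for *Fgfr4* *Slc25a48*, the noncoding *9830144P21Rik* and *Zc3hc1* (0.98 for each). *Fgfr2* was followed by *Scx*, *Pbk* and *Lhfp* (0.97, 0.96 and 0.96), *Fgfr3* by *Acap1*, *Pygm* and *Ucp2* (0.92, 0.91 and 0.89), and *Klb* by *Xrn2*, *Ipmk* and *Psmd1* (0.93, 0.93 and 0.92). *Fgf21* was followed by *Snf8*, *Ndufa12* and *Atp5o* (0.91, 0.90 and 0.90), *Dusp6* by *Ndufa4l2*, *Ier3* and *Tspyl2* (0.96, 0.94 and 0.92), and *Spred1* by *Ttc14*, *Rasa1* and *Zfp953* (0.99, 0.98 and 0.98). Without the 2 mice farthest from the median of the gene followed, *r* fell to 0.63, 0.51 and 0.80 for the genes named with *Dusp6*, so that these rest in part on those mice, and was between 0.72 and 0.99 for all others named. The values over 11 mice are the highest among all 13880 tested genes, and are given as a description.

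The wider pathway was read from 8 lists with 128 genes, of which 105 were tested. With INT-767, 6 were higher and 6 lower, which is 5.71% in each direction beside 5.04% and 4.68% of all tested genes. Their median log2 fold change was -0.24, beside -0.01 over all tested genes, and the groups did not overlap for 4 genes with INT-767 higher and 5 with it lower, beside 3.87% and 3.64% of all tested genes. These counts are close to the background, but they include the 5 bile acid genes described last, of which 3 were called higher and 2 lower. *Nr0b2*, *Abcb11* and *Slc51b* of that list are among the 4 higher genes without overlap, and *Cyp8b1* is among the 5 lower ones. The totals thus do not describe the FGF and ERK lists alone, which hold fewer calls.

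Of 13 genes for FGF receptors, Klotho proteins and receptor modulators, 10 were tested. *Fgfr1* was the one called by edgeR and by both forms of limma-voom, and DESeq2 called 2 lower, beside 9.86% of all tested genes. The decoy receptor *Fgfrl1*, which lacks a kinase domain, was at 50.4 ± 8.59 CPM with vehicle and 46.8 ± 7.62 CPM with INT-767 (edgeR adjusted *p* = 0.643). Of 22 genes for heparan sulfate proteoglycans and their synthesis, 21 were tested, and edgeR called 2 higher and 1 lower. *Sdc1*, the syndecan of hepatocytes and the gene of the list with the most counts over all mice (*Sdc4* was higher with vehicle), rose from 259 ± 63.6 to 434 ± 106 CPM (log2 fold change 0.75 ± 0.22; edgeR adjusted *p* = 0.0487), and *Sdc2* rose from 111 ± 29.7 to 193 ± 25.2 CPM (0.79 ± 0.19; adjusted *p* = 0.0272). The call of *Sdc1* was lost with limma-voom (adjusted *p* = 0.0587) and, in edgeR, with upper-quartile factors (0.0651), library size only (0.0962), no filter beyond 1 count (0.0622) or at least 10 counts in every mouse (0.0583), and with both block fits. With 1 mouse left out its adjusted *p* by edgeR was between 0.0275 and 0.148, and it passed only without vehicle mouse 1 or INT-767 mouse 3. *Sdc3* fell from 86.9 ± 29.4 to 42.1 ± 11.2 CPM (-1.04 ± 0.28; edgeR adjusted *p* = 0.0348). The edgeR calls of *Sdc2* and *Sdc3* were each lost in 6 of 11 fits without 1 mouse (highest adjusted *p* 0.102 and 0.141). Of the 21 genes, 16 had a negative sign, and of these *Sdc3* alone passed the threshold.

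Of the 24 adaptor and RAS to ERK genes, all tested, edgeR called 1 lower, while DESeq2 called 4, limma-voom 0 and its weighted form 2. Over all 13880 tested genes edgeR called 4.68% lower and DESeq2 9.86%, while limma-voom called 547 lower and its weighted form 1182. The edgeR call was *Rps6ka1*, the ERK-activated kinase RSK1, which fell from 25.1 ± 9.62 to 11.1 ± 3.18 CPM (log2 fold change -1.18 ± 0.35; edgeR adjusted *p* = 0.0488). *Map2k2*, the most abundant gene of the list, was at 98.7 ± 9.22 CPM with vehicle and 113 ± 12.8 CPM with INT-767 (edgeR adjusted *p* = 0.293). The median log2 fold change of this list was -0.01.

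Of 17 feedback inhibitors of ERK signaling, 15 were tested and 0 were called by edgeR, DESeq2 or either form of limma-voom, and 6 had an unadjusted edgeR *p* under 0.05, beside 32.9% of all tested genes. Their median log2 fold change was -0.56, with a negative sign for 11 of 15, and *Dusp6*, *Spry4* and *Spred1* are 3 of the 15. The 4 with a positive sign were *Spry4*, *Spred1*, *Rasa1* (0.44) and *Errfi1* (0.12), none past the threshold. *Errfi1*, the most abundant gene of the list, was at 780 ± 334 CPM with vehicle and 850 ± 285 CPM with INT-767. The 15 genes known to be induced by ERK gave 14 tested and 0 called by edgeR or limma-voom, with 4 at an unadjusted edgeR *p* under 0.05 (again beside 32.9% of all genes), a median of -0.49 and 11 negative. DESeq2 called 1 of them higher and 3 lower, beside 10.4% and 9.86% of all tested genes. With sample weights limma-voom called 1 higher, beside 1626 of all 13880 tested genes. Of the ERK-induced genes *Ier3* (-2.75 ± 0.82; edgeR adjusted *p* = 0.0533) and *Egr2* (-1.43 ± 0.43; adjusted *p* = 0.0546) were lower in every INT-767 mouse than in any vehicle mouse. Both passed in edgeR with library size only (0.0427 and 0.0465), upper-quartile factors (0.0491 for each) or the GC content and length offset (0.0346 and 0.0474), and both were among the DESeq2 calls. They did not pass with no filter beyond 1 count (0.120 and 0.0681), limma-voom (0.0907 and 0.0625), its weighted form (0.112 and 0.0583) or both block fits. Each also missed the threshold in 9 of 11 edgeR fits without 1 mouse (highest adjusted *p* 0.171 and 0.132). Lower values without overlap held for 3.64% of all tested genes. *Egr2* was scarce, at 2.64 ± 1.03 CPM with vehicle and 0.943 ± 0.565 CPM with INT-767. Its lowest INT-767 value of 0.138 CPM is below the level of 3 counts in every library (0.187 to 0.406 CPM before TMM scaling). For *Ier3* vehicle mouse 3 stood at 69.2 CPM and the other vehicle mice between 5.60 and 8.66 CPM, and without mouse 3 its log2 fold change was -1.61 ± 0.27 (edgeR adjusted *p* = 0.0103). *Etv5*, an ETS factor that FGF signaling induces, was at 5.30 ± 1.45 CPM with vehicle and 2.98 ± 1.26 CPM with INT-767 (edgeR adjusted *p* = 0.0826), while *Ccnd1*, the most abundant, was at 78.2 ± 23.2 and 94.9 ± 32.9 CPM. *Ier2*, also at an unadjusted edgeR *p* under 0.05, had a positive log2 fold change of 0.60 ± 0.19 (edgeR adjusted *p* = 0.0643). It was at 18.1 ± 4.73 CPM with vehicle and 27.4 ± 2.18 CPM with INT-767.

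**Figure D4:**
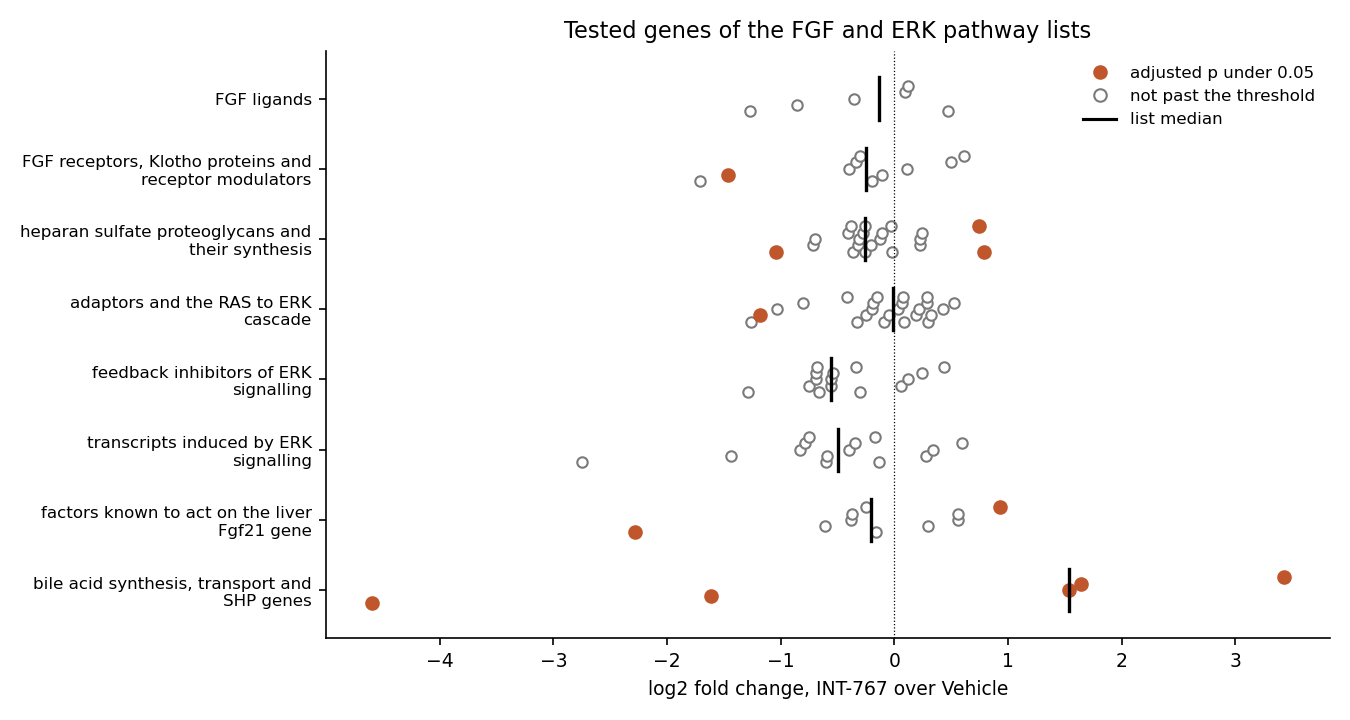
Each circle is a tested gene, placed by its log2 fold change of INT-767 over vehicle, with filled orange circles for an edgeR adjusted *p* under 0.05 and black bars for list medians. The 15 feedback inhibitors and 14 ERK-induced transcripts center below 0 (medians -0.56 and -0.49) without a filled circle, and the 5 bile acid genes are all filled.

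Of 10 factors known to act on the liver *Fgf21* gene, all tested, edgeR and limma-voom called 1 higher and 1 lower, while DESeq2 called 3 higher and weighted limma-voom 2 higher, each with 1 lower. Over all 13880 tested genes DESeq2 called 10.4% higher and 9.86% lower, and weighted limma-voom called 1626 higher and 1182 lower. *Ppargc1a*, the coactivator PGC-1alpha, rose from 14.8 ± 2.38 to 28.3 ± 3.81 CPM (log2 fold change 0.93 ± 0.15; edgeR adjusted *p* = 0.00496). *Nr1d1*, the clock repressor REV-ERBalpha, fell from 43 ± 16 to 8.86 ± 6.71 CPM (-2.28 ± 0.51; edgeR adjusted *p* = 0.0204). In both genes the groups did not overlap. *Atf4*, whose product binds the first of the motifs shown in the *Fgf21* promoter, was at 94.3 ± 20.7 CPM with vehicle and 116 ± 28.3 CPM with INT-767 (edgeR adjusted *p* = 0.302). *Rxra*, the gene of the list with the most counts over all mice (*Creb3l3* was higher with INT-767), was at 407 ± 107 and 314 ± 100 CPM (adjusted *p* = 0.322).

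The last list held 5 bile acid genes: SHP itself and a pair of transporters, known as targets of FXR, and the synthesis enzymes *Cyp7a1* and *Cyp8b1*, which FGF15/19 and SHP repress. All 5 were called by edgeR, 3 higher and 2 lower. *Slc51b*, a basolateral bile acid exporter, rose from 1.31 ± 0.846 to 14.5 ± 7.39 CPM (log2 fold change 3.43 ± 0.45; edgeR adjusted *p* = 0.00234). *Abcb11*, the canalicular bile salt pump and the most abundant of the 5, rose from 254 ± 77.9 to 792 ± 296 CPM, and *Nr0b2*, which encodes SHP, from 17.0 ± 5.91 to 49.6 ± 9.50 CPM. *Cyp8b1*, the sterol 12-hydroxylase, fell from 122 ± 31.2 to 4.95 ± 5.69 CPM (log2 fold change -4.60 ± 0.65; edgeR adjusted *p* = 0.00329), and *Cyp7a1*, the rate-limiting enzyme of bile acid synthesis, was lower as well (-1.62 ± 0.34; adjusted *p* = 0.0159). In the same livers *Fgf15* had 2 counts in all, and *Fgfr4* and *Klb* did not pass the threshold.

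Markers of the liver's other cells were set beside *Fgfr1*, since whole tissue was sequenced. Of 65 marker genes in 10 lists, 57 were tested and 7 were lower with edgeR, or 12.3% beside 4.68% of all tested genes. None was higher with edgeR, and 5 were with DESeq2, 4 of them hepatocyte markers, where DESeq2 called 10.4% of all tested genes higher. All 8 myofibroblast markers had a negative log2 fold change (median -1.36), and *Loxl2*, *Col1a2*, *Col1a1* and *Pdgfrb* passed the threshold. *Col3a1*, the most abundant of the 8, was at 288 ± 125 CPM with vehicle and 109 ± 66.4 CPM with INT-767 (edgeR adjusted *p* = 0.0516). *Acta2*, *Tagln* and *Timp1* overlapped between the groups and did not pass (edgeR adjusted *p* = 0.173, 0.281 and 0.23). *Col1a1* and *Col1a2* were at 157 CPM each with vehicle and at 20.1 and 30.8 CPM with INT-767, so that most of the sum below is collagen RNA. The summed level of the 8 genes was 385, 368, 667, 663, 1251, 1098 and 322 CPM in vehicle mice 1 to 7 and 192, 78.3, 218 and 299 CPM in INT-767 mice 1 to 4. Every INT-767 mouse was thus below every vehicle mouse, INT-767 mouse 2 was lowest in both this sum and *Fgfr1*, and vehicle mouse 5 was highest in both. Vehicle mice 1, 2 and 7 had the lowest sums and the lowest *Fgfr1* of their group, and vehicle mice 3, 5 and 6 the highest of both, while INT-767 mouse 4 had the highest sum of its group and its second-lowest *Fgfr1*. This match was not particular to myofibroblast markers. The sum of the sinusoidal endothelium markers was 120, 174, 258, 249, 330, 310 and 134 CPM in vehicle mice 1 to 7. In INT-767 mice 1 to 4 it was 196, 120, 164 and 101 CPM. Vehicle mice 1, 2 and 7 were again lowest and mice 3, 5 and 6 highest, and INT-767 mice 2 and 4 were lowest in this sum as in *Fgfr1*. The part of the cells of either list in the lower *Fgfr1* was not tested.

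**Figure D5:**
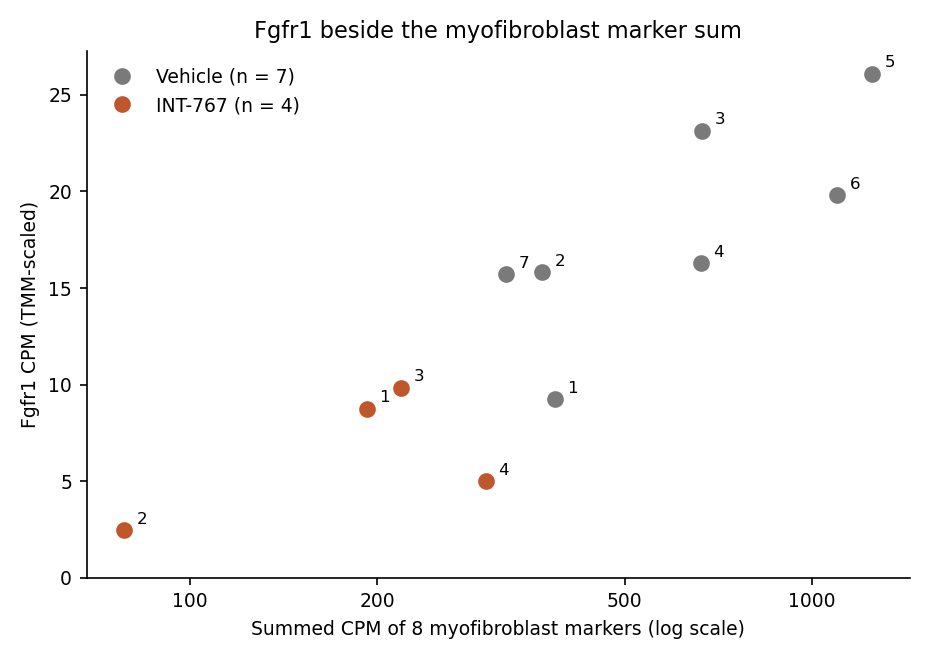
Each numbered point is a mouse, placed by the summed CPM of 8 myofibroblast markers (log axis) and by its *Fgfr1* level in CPM (linear axis from 0). The INT-767 mice (orange, 78.3 to 299 CPM on the marker sum) lie to the left of and mostly below the vehicle mice (gray, 322 to 1251 CPM), and vehicle mouse 1 has an *Fgfr1* level of 9.24 CPM, between those of INT-767 mice 1 and 3.

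Among the other lists, 2 of 7 macrophage markers (*Csf1r* and *Cd68*) and 1 of 7 cholangiocyte markers (*Muc1*) were lower by edgeR, and 5 and 4 by DESeq2, which called 9.86% of all tested genes lower. The macrophage sum was between 508 and 746 CPM with vehicle (median 666) and at 367, 323, 324 and 704 CPM in INT-767 mice 1 to 4, with *Lyz2* the most abundant (282 ± 106 CPM with vehicle and 214 ± 124 CPM with INT-767). The cholangiocyte sum, mostly *Spp1* (994 ± 458 and 732 ± 420 CPM), was highest in vehicle mice 1 and 7 (1941 and 1511 CPM) and INT-767 mouse 4 (1361 CPM), the mice with low *Fgf1* and *Fgfr4*, and between 357 and 857 CPM in the other 8. The macrophage sum was also high in these mice, at 720 and 741 CPM in vehicle mice 1 and 7, beside 746 CPM in vehicle mouse 6, and at 704 CPM in INT-767 mouse 4. Whole-liver counts do not show which cells the *Spp1* RNA came from, and the part of either list in the *Fgf1* and *Fgfr4* levels was not tested. Of the 7 hepatocyte markers, 0 were called by edgeR and 4, all higher, by DESeq2, with an unadjusted edgeR *p* under 0.05 for 4. They had summed levels of 52036 to 68946 CPM with vehicle and of 99021, 99128, 82235 and 54835 CPM in INT-767 mice 1 to 4. Quiescent stellate cell markers (0 of 7 called by edgeR or DESeq2 and 0 at an unadjusted edgeR *p* under 0.05, *Dcn* most abundant at 471 ± 73.7 and 549 ± 179 CPM) summed to between 623 and 846 CPM with vehicle and to 636, 756, 692 and 1074 CPM with INT-767. The 7 markers of sinusoidal endothelium (*Stab1*, with the most counts over all mice, at 65.2 ± 34.9 and 24.9 ± 11.7 CPM, the latter below *Stab2*) and the 7 of lymphocytes (*Ptprc*, 35.4 ± 9.81 and 26.5 ± 9.43 CPM) had 0 calls by edgeR, with 3 and 1 at an unadjusted *p* under 0.05, and 1 and 0 calls by DESeq2. No call by edgeR was made either for the 2 tested of neutrophils (*S100a9*, 4.08 ± 1.23 and 5.47 ± 6.89 CPM), the 4 tested of mesothelium (*Gpm6a*, 6.97 ± 2.69 and 6.81 ± 0.515 CPM) and the 1 tested of pancreas (*Cela1*, 18.6 ± 3.39 and 13 ± 4.92 CPM), whose markers *Cpa1* and *Pnlip* were at 0 in every mouse. Of these 3 lists, 1 mesothelium marker was at an unadjusted edgeR *p* under 0.05 and called by DESeq2, *Upk3b*.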

How the data were processed

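Bulk mRNA sequencing covered 11 livers, 7 from the vehicle group and 4 from the INT-767 group, as the sample labels give them. The authors prepared stranded mRNA libraries from the left lateral lobe, ran 75 cycles of sequencing and aligned the reads to GRCm38 (Ensembl release 84). The submitters' processing notes name STAR 2.4.0 and the study's methods a later version. The authors deposited 1 table of raw read counts for 46603 genes, without normalization. How the reads were counted (program and use of strand), batches and litters: not given in the sources used here, and *p*-values measure the spread between these mice. Counts cover 7381211 to 16022459 reads per mouse.

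Counts were tested in R 4.3.3 with edgeR 4.0.16 (TMM factors, filterByExpr at its defaults, that is 10 for single counts and 15 for the total, robust glmQLFit and glmQLFTest, no term but treatment), with Benjamini-Hochberg adjustment over 13880 genes. Each standard error was derived from the log2 fold change and F of this test, and 95% intervals, which include the spread between mice, from its degrees of freedom. Exact two-sided Mann-Whitney tests enumerated all 330 assignments of the mice. Coordinates and exon lengths are from GENCODE M21, and promoter windows from RefSeq (GRCm38.p6). On simulated data with this design and 13880 genes, edgeR recovered 92.5% of 200 genes changed by 2 on the log2 scale and called 10 others. No pair of libraries was a copy, with a median chi-square per gene of 1.11 for the closest pair against 0.455 for redraws of 1 library.

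The 10 genes, the 8 pathway lists and the 10 marker lists were chosen with earlier results of these data and the study's supplementary gene table known, so that they are not independent evidence. Named were the 10 genes and *Fgf15*, up to 4 called genes and the most abundant gene of each pathway list, the most abundant gene and the genes at 0 of each marker list, and for each of the 10 the 3 tested genes with the highest Pearson *r*, on log2 CPM with a prior count of 2. The called markers, *Acta2*, *Tagln*, *Timp1*, *Upk3b*, *Cyp7a1*, *Atf4*, *Fgfrl1*, *Rasa1*, *Sdc4*, *Creb3l3*, *Stab2*, *Egr2*, *Etv5*, *Ier2*, the other FGF genes and the genes given as too low were named after their values were seen. The alternatives were RLE factors, library size only, upper-quartile factors, all genes with 1 count or more, only genes with 10 counts or more in each mouse, DESeq2 1.42.0, limma-voom (limma 3.58.1) with and without sample weights, a block for the mouse's number, an offset for GC content and transcript length (lowess span 0.3) with and without that block, a threshold of 0.01 and leaving out each mouse. Figures were drawn with matplotlib 3.10.9.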

Additional observations from a re-analysis of the deposited data

Results flagged for a closer look

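Of the 10 genes and the 4 receptor shares, 28 groups of values were examined for a single mouse far from the others of its group, a rule that chance meets in about 1 of 20 groups. In the vehicle group, mouse 2 had a *Klb* level of 41.6 CPM, where the next highest mouse had 30.7 CPM, a gap of 0.579 of the group's range. In the same group, mouse 3 had a *Dusp6* level of 104 CPM, where the next highest had 64.0 CPM, a gap of 0.775 of the range. Without vehicle mouse 2 the log2 fold change of *Klb* was 0.23 (adjusted *p* = 0.398), and without vehicle mouse 3 that of *Dusp6* was -0.18 (adjusted *p* = 0.41), and neither passed the threshold by edgeR.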

How the results depend on the processing

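*Fgfr1* was lower in all 23 alternative fits, with a log2 fold change between -1.69 and -1.12, and passed its threshold in 16. Beside the 4 fits without 1 mouse given with its values, it missed a threshold of 0.01 and both fits with a replicate block. The mouse numbers do not pair the mice: the correlation of same-numbered mice's deviations was -0.69, 0.215, 0.148 and -0.482. With the replicate block, 0 genes were called higher and 0 lower by edgeR (1347 at an unadjusted *p* under 0.05), hence 0 of the 10 genes, 0 pathway and 0 marker genes, and *Fgfr1* had an adjusted *p* of 0.416. The GC content and length offset with the block gave 0 calls in each as well (1681 at an unadjusted *p* under 0.05).

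Of all tested genes, 700 were called higher and 649 lower, and of the lists 12 pathway and 7 marker genes. Leaving out each mouse gave 164 to 1906 higher, 110 to 1370 lower, 0 to 1 of the 10 genes, 5 to 23 pathway and 2 to 13 marker genes, the fewest without INT-767 mouse 2 and the most higher and lower genes without vehicle mouse 1. DESeq2 called 1443 and 1368 genes, 23 pathway and 20 marker genes. limma-voom with sample weights called 1626 and 1182, with 19 marker genes. The offset alone called 1072 genes higher, 21 pathway and 13 marker genes. A threshold of 0.01 left 158 and 87 genes, 0 of the 10, 5 pathway and 2 marker genes. Library size only called 331 and 1026, with 12 marker genes, so that 24.4% of calls were higher against 51.9%, and 36.5% with upper-quartile factors and 64.5% at the 0.01 threshold. The causes were not tested.

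The sign of genes that did not pass the threshold turned in places. *Fgfr2* was at 0.059 with the offset and 0.13 with offset and block, *Klb* at -0.071 with library size only and -0.016 with the block, *Fgf1* at -0.067 with library size only, and *Spry4* at -0.13 with library size only, -0.0080 with upper-quartile factors and -0.0049 with at least 10 counts in every mouse. Without 1 mouse, *Klb* was between -0.0028 and 0.26, *Fgf1* between -0.10 and 0.32 and *Spry4* between -0.14 and 0.24, and their exact Mann-Whitney *p* between 0.183 and 1 for *Klb*, 0.383 and 1 for *Fgf1* and 0.667 and 1 for *Spry4*. With library size only the medians of *Spred1* changed order (exact *p* = 0.927). The fitted fold changes of *Fgfr1*, *Fgfr3*, *Fgfr4*, *Fgf21*, *Dusp6* and *Spred1* kept their sign in all 23, at times near 0: *Fgfr3* was at -0.039 with the offset and -0.0078 with offset and block, *Fgf21* at 0.055 with offset and block and *Spred1* at 0.025 with library size only. Over 13835 genes the log2 fold change followed GC content (Spearman -0.296) and transcript length (-0.244). With 4 against 7 mice the median standard error of the 10 genes was 0.26, and differences as large as 0.47 (*Fgf21*) did not pass the threshold.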
